A study of Mus musculus with 14 samples.

Results

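Liver tumours labelled Regress were compared with normal liver in male C3HeB/FeJ mice, an inbred strain prone to liver tumours as it ages. The comparison uses 8 of the 14 RNA sequencing libraries of the series, namely 4 Regress tumours (Regress 1 to 4) and 4 normal livers (Normal 1 to 4), taken by their labels. The other 6 libraries, tumours labelled Grow, were not compared here, but they entered the estimate of spread between libraries and the filter on low counts, and so helped to decide which genes were tested. Mice were screened for tumours at 10 months of age, were injected on 5 days of each 28-day cycle for 6 cycles, and are given as 18 months old. Regress 1 and Regress 3 came from mice given temozolomide (TMZ, a drug that alkylates DNA) at 31 mg/kg. Regress 2 came from a mouse given phosphate citrate buffer and Regress 4 from one given the solvent DMSO. Of the Grow tumours in the fit, Grow 1 and Grow 5 are labelled DMSO. Grow 2, Grow 3 and Grow 4 are labelled SAHA with TMZ, at 85 and 22 mg/kg, and Grow 6 the drug SAHA alone, at 100 mg/kg. The estimate of spread thus mixes tumours given different agents. All 4 normal livers came from mice given the buffer, so tumour status and injected agent cannot be told apart except in Regress 2. The labels do not state how regression was scored. They also do not say whether samples of a group came from separate animals, so each p-value rests on the spread among these libraries, which may be technical. Regress 2 and Normal 4 carry the same sample code.

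Liver tumours of mice often carry activated RAS and ERK signalling, which induces cyclin D1, ERK phosphatases and other feedback genes. Hepatocytes, the main cells of the liver, make plasma proteins, urea and bile acids and detoxify drugs, in part by sex and by time of day, and these functions are often reduced in tumours. A tumour that shrinks can lose tumour cells, stop dividing or be replaced by scar and immune cells, and bulk RNA cannot separate fewer cells of a type from less RNA per cell.

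Expression is given as CPM, the estimated count of a gene per 1 M of the library's scaled total. The 4 Regress libraries held 4.71 to 6.17 M estimated counts and the 4 Normal libraries 5.27 to 7.47 M. The hepatocyte product albumin (Alb) was abundant throughout, at 50742, 111445, 117038 and 131059 CPM in Regress 1 to 4, against 28650.0, 31026, 44750.0 and 53813 CPM in Normal 1 to 4. The Y-linked gene Ddx3y stood between 52.2 and 77.8 CPM in the Regress tumours and between 56.7 and 86.03 CPM in the normal livers, and Xist, which marks female cells, was at or below 0.350 CPM in all 8. Normal 2 nevertheless stood apart from the other normal livers in sex-biased genes. The female-biased cytochrome P450 gene Cyp2c40, of a family with closely related members, was at 3.35, 0.988, 1.03 and 2.54 CPM in Regress 1 to 4, against 1.58, 512, 0.747 and 2.91 CPM in Normal 1 to 4. The urinary protein gene Mup1, one of a family with near-identical members and male-biased, was at 37625, 258, 386 and 60.4 CPM in Regress 1 to 4, against 8351, 36.3, 3907 and 32415 CPM in Normal 1 to 4. Normal 2 was thus the highest of the 8 libraries for Cyp2c40 and the lowest for Mup1.

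The 4 tumours did not lie equally far from normal liver. A gene was counted where its log2 CPM lay at least 1 above the highest or 1 below the lowest of 3 normal livers, and counts for a tumour were averaged over the 4 choices of 3. Regress 1 had 395.5 genes above and 288.25 below among 12300 tested features. Regress 2 had 954.75 above and 887.75 below, Regress 3 had 886.5 and 1003.5, and Regress 4 had 1257 and 930.25. Normal livers measured in the same way against the other 3 had 106 to 458 genes above and 106 to 1045 below. Regress 1 therefore lay within the spread of the normal livers on this measure, while the other 3 tumours lay beyond it for genes above. For genes below, Normal 3 exceeded all 4 tumours. Normal 3 and Regress 4 also stood apart from their groups by transcript length. Long transcripts stood above short ones by 0.98 log2 units in Regress 4 and 1.10 in Normal 3, whereas the difference was -0.83, -0.98 and -1.13 in Regress 1, 2 and 3 and lay between -0.64 and 0.08 in the other normal livers.

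**Figure D1:**
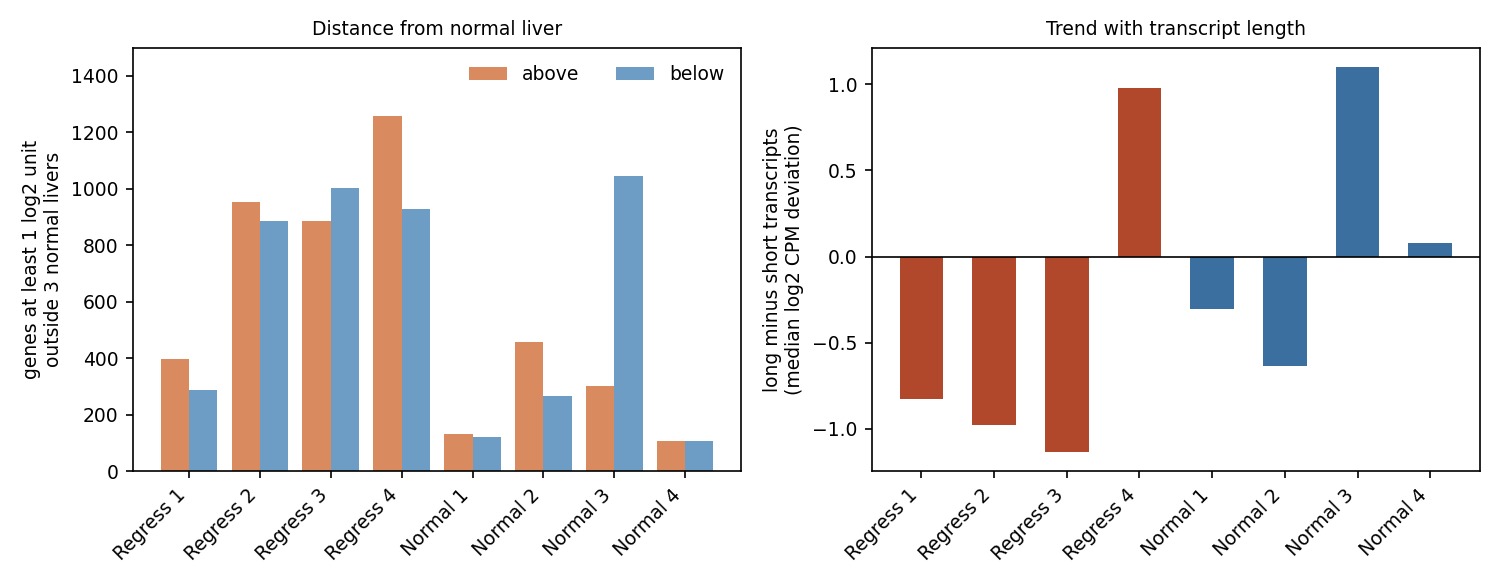
Left, the number of genes at least 1 log2 unit above or below 3 normal livers, for each Regress tumour (mean over the 4 choices of 3) and each normal liver (against the other 3). Right, the median log2 CPM deviation of long minus short transcripts in each library, positive in Regress 4 (0.98) and Normal 3 (1.10) and negative in Regress 1 to 3.

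A gene was called at an adjusted p under 0.05 in edgeR's quasi-likelihood test, with Benjamini-Hochberg adjustment over the 12300 features. Only 3 genes passed, 0.0244% of those tested, and all 3 rose in the Regress tumours. Cyclin D1 (Ccnd1), which carries cells into the division cycle, stood at 11.4, 50.4, 21.6 and 45.99 CPM in Regress 1 to 4, against 4.92, 3.33, 4.18 and 5.53 CPM in Normal 1 to 4. All 4 tumours lay above all 4 normal livers, with Regress 1 lowest among the tumours (log2 fold change 2.85 ± 0.4 SE, adjusted p = 0.0388). Ccnd1 averaged 32.4 ± 18.8 CPM in the Regress tumours and 4.49 ± 0.949 CPM in the normal livers (SD, n = 4 each). Dusp6, the phosphatase that ERK induces and that switches ERK off, was at 37.4, 112, 74.2 and 123 CPM in Regress 1 to 4, against 22.3, 20.1, 18.1 and 18.3 CPM in Normal 1 to 4. Again no tumour overlapped the normal range, Regress 1 lay closest to it, and Dusp6 rose by 2.14 on the log2 scale (SE 0.33, adjusted p = 0.0457). The mean of Dusp6 was 86.8 ± 39.1 CPM in the Regress tumours and 19.7 ± 1.95 CPM in the normal livers (SD, n = 4 each). Mpzl1, a cell surface glycoprotein that binds the phosphatase SHP2, was at 6.501, 8.896, 9.01 and 19.05 CPM in Regress 1 to 4, against 1.76, 1.05, 1.79 and 0.727 CPM in Normal 1 to 4, and rose by 3.02 (SE 0.44, adjusted p = 0.0388). Regress 4 was the highest tumour for Mpzl1, and again no tumour lay within the normal range. The mean was 10.9 ± 5.58 CPM in the Regress tumours and 1.33 ± 0.528 CPM in the normal livers (SD, n = 4 each).

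The count of 3 depended on the libraries and on the tool. Without Regress 1, which lay near normal liver, edgeR called 667 of 12634 features (5.28%), 476 higher and 191 lower, all 3 genes among them. Without the TMZ-treated Regress 1 and 3 it called 512 of 13021 (3.93%), 408 higher (3.13%) and 104 lower (0.799%). After each library's trend on transcript length was removed it called 151 of 11279 (1.34%), 128 higher (1.13%) and 23 lower (0.204%), again with the 3 among them. Leaving out any 1 normal library gave 0 calls with edgeR, with 1395 to 2312 genes at an unadjusted p under 0.05, as did leaving out Regress 2 (1578) or Regress 3 (1515). With only the Regress and Normal libraries edgeR also called 0, with 1248 at an unadjusted p under 0.05. Grow 3 and Grow 4 had the highest Spearman correlation of any pair of libraries, 0.987. With their counts summed edgeR called 0, with 1927 at an unadjusted p under 0.05. DESeq2 called 712 features, 550 higher and 162 lower, and limma-voom called 0, with 1601 at an unadjusted p under 0.05. In the full set edgeR had 1988 features at an unadjusted p under 0.05 (16.2%), 1176 higher and 812 lower. Of these, 49 shared the next adjusted p of 0.0510, 37 higher and 12 lower. In simulated libraries of the same group sizes, edgeR called 4.55% of changed genes at 1 log2 unit, 49.3% at 2 and 86.2% at 4. Of its calls 8% were false. The simulation gave each gene 1 mean per group, with no tumour near normal liver and no length trend. These shares need not hold for the real libraries, where Akr1c18 did not pass at a log2 fold change of 8.02. A difference of any size that did not pass is thus not shown to be absent.

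Because so few genes passed, the groups of genes that follow are given by values, by how many tested members lay in all 4 tumours above or below all 4 normal livers, and by medians. Over all features tested, 335 lay above in this sense (2.72%) and 394 below (3.2%), and the median log2 fold change was 0.03. Beside Ccnd1 and Dusp6 no member of any of the lists passed the edgeR test on all libraries. Medians smaller in size than that of DNA replication (0.50) moved by more than 1.5 times or turned sign when single libraries were left out, and give no direction. Because the filter also used the Grow tumours, some members near 0 in normal liver were tested only through them, and counts and medians describe the tested members and support no direction of a list. Counts without Regress 1 are given for each list described in which that fit called a member, against 3.77% of features called higher and 1.51% called lower in it. Regress 1 was left out as the tumour known to lie nearest normal liver, so those counts are a description of the other 3 tumours and not further evidence.

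**Figure D2:**
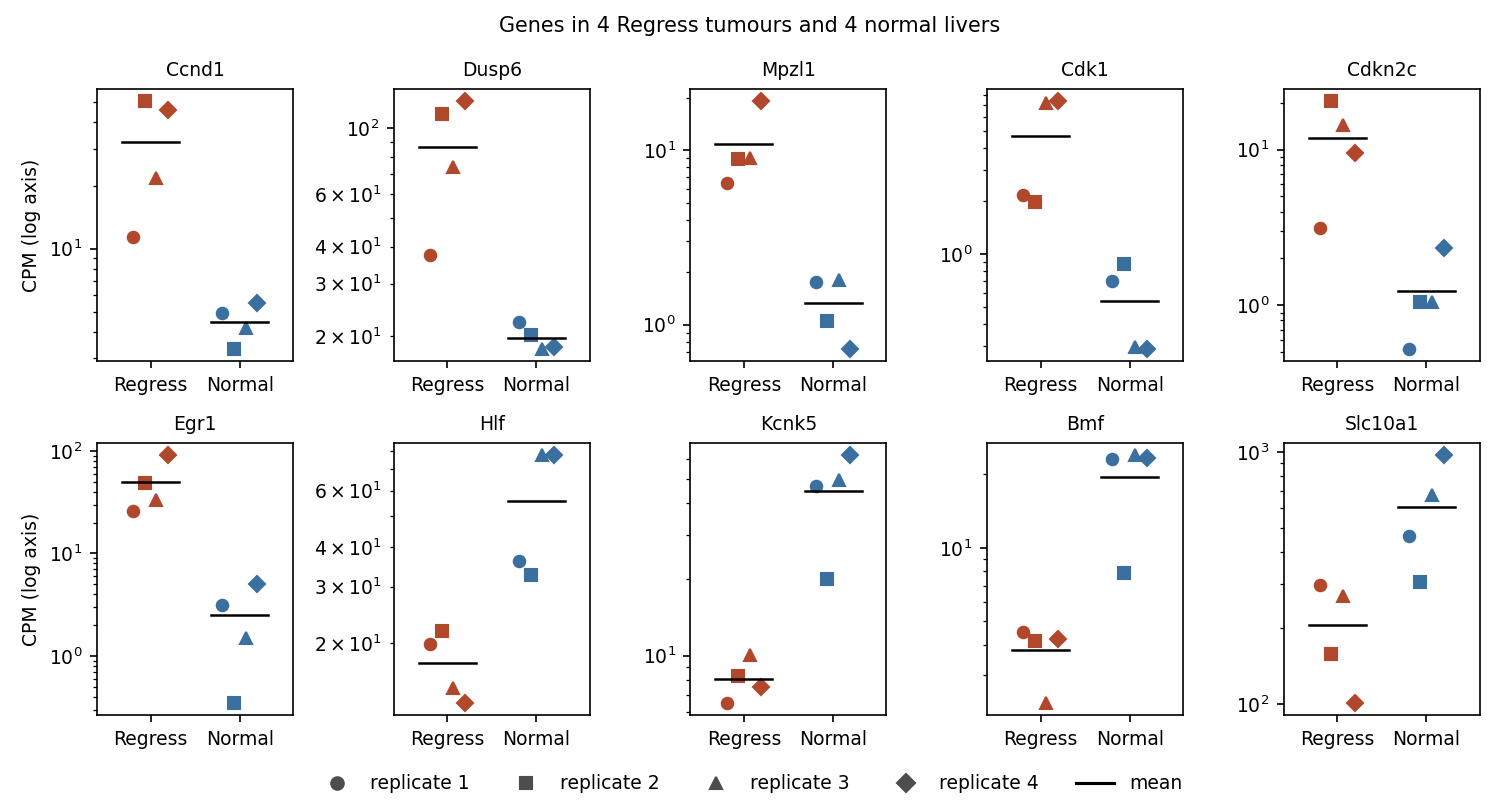
CPM on a log axis of 10 genes in each Regress tumour (left of each panel) and each normal liver (right), with symbols for the replicate number and a line for the mean. Ccnd1, Dusp6, Mpzl1, Cdk1, Cdkn2c and Egr1 lie higher in all 4 tumours, and Hlf, Kcnk5, Bmf and Slc10a1 lower, while only Ccnd1, Dusp6 and Mpzl1 passed the test. The labels do not say whether equal replicate numbers pair libraries across groups.

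Feedback and output genes of ERK signalling had 4 of 14 tested members above in all tumours and none below, with a median log2 fold change of 1.16, or 0.75 without Regress 4. The 4 were Ccnd1, Dusp6, Spred1 and the receptor Epha2. Dusp5, a nuclear ERK phosphatase, was at 0, 4.55, 2.32 and 17.9 CPM in Regress 1 to 4, against 0, 0, 0.149 and 0 CPM in Normal 1 to 4. It was at or near 0 in all normal livers and in Regress 1 and present in the other 3 tumours. The list's median log2 difference from normal liver was 0.03 in Regress 1, 1.28 in Regress 2, 0.80 in Regress 3 and 2.21 in Regress 4. Without Regress 1, 4 members were called higher, namely Ccnd1, Dusp4, Dusp5 and Dusp6, and none lower.

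Immediate early genes, which cells switch on within minutes of a growth or stress signal, gave a similar picture, with 4 of 14 above, none below and a median of 1.5. Egr1, a zinc finger transcription factor of this class, stood at 26.01, 48.6, 32.96 and 90.4 CPM in Regress 1 to 4, against 3.16, 0.350, 1.49 and 5.09 CPM in Normal 1 to 4. Even the lowest tumour, Regress 1, was above the highest normal liver (log2 fold change 4.28 ± 0.97 SE, adjusted p = 0.0630). Egr1 averaged 49.5 ± 28.9 CPM in the Regress tumours and 2.52 ± 2.06 CPM in the normal livers (SD, n = 4 each). Junb, an AP-1 subunit, was at 23.8, 77.1, 40.7 and 48.95 CPM in Regress 1 to 4, against 18.4, 8.76, 18.8 and 19.2 CPM in Normal 1 to 4. Btg2, which restrains cell division and is also a p53 target, was at 12.6, 174, 54.6 and 64.5 CPM in Regress 1 to 4, against 13.9, 8.23, 4.63 and 8.87 CPM in Normal 1 to 4, with Regress 1 inside the normal range and Regress 2 highest (log2 fold change 3.1 ± 0.75 SE, adjusted p = 0.0716). Krüppel-like factor Klf6 lay above in all 4 tumours at 26.6, 85.6, 47.6 and 24.8 CPM in Regress 1 to 4, against 14.9, 18.6, 8.82 and 11.3 CPM in Normal 1 to 4. The list's median difference was 0.10 in Regress 1 and between 1.5 and 2.25 in the other tumours, and 7 members were called higher without Regress 1.

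The tested genes of the cell cycle and mitosis had a median above normal liver in each Regress tumour. Their levels were low and differed between tumours. Of 30 list genes 27 passed the filter on low counts, 6 lay above in all tumours and none below, and the median log2 fold change was 3.17. The median leans on genes near 0 in normal liver, and with only the 8 libraries in the filter and the fit it was 1.03, where Cdk1, Ccna2 and Mki67 were not tested. The mitotic kinase Cdk1 stood at 2.17, 1.98, 7.21 and 7.34 CPM in Regress 1 to 4, against 0.702, 0.876, 0.299 and 0.291 CPM in Normal 1 to 4. Regress 3 and Regress 4 were highest and Regress 1 and Regress 2 lay just above the normal range (log2 fold change 3.09 ± 0.56 SE, adjusted p = 0.0510). Cdk1 averaged 4.67 ± 3.004 CPM in the Regress tumours and 0.542 ± 0.294 CPM in the normal livers (SD, n = 4 each). Mki67, the proliferation marker, was at 1.77, 0, 1.803 and 21.3 CPM in Regress 1 to 4, against 0.702, 0, 1.195 and 0.145 CPM in Normal 1 to 4. It was thus high only in Regress 4, with no count in Regress 2 (log2 fold change 3.58 ± 1.18 SE, adjusted p = 0.153). Ccna2, cyclin A2, was at 0.985, 0.198, 5.67 and 7.62 CPM in Regress 1 to 4, against 0.527, 0.175, 0.149 and 0.291 CPM in Normal 1 to 4, high in Regress 3 and 4 only. The list's median difference was 0.75 in Regress 1, 0.46 in Regress 2, 1.98 in Regress 3 and 3.27 in Regress 4, and without Regress 1 15 members were called higher and none lower. DNA replication genes had 2 of 23 above, Rrm2 and Uhrf1, and a median of 0.50, and 4 were called higher without Regress 1. Uhrf1, which copies DNA methylation after replication, had 0.197, 1.19, 0.515 and 3.81 CPM in Regress 1 to 4, against 0.176, 0, 0.149 and 0.145 CPM in Normal 1 to 4. Lig1, the replicative DNA ligase, had 1.77, 8.303, 6.18 and 11 CPM in Regress 1 to 4, against 2.63, 2.45, 1.64 and 2.18 CPM in Normal 1 to 4.

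Inhibitors of the cell cycle stood high in Regress 2, 3 and 4. The senescence list had 3 of 15 members above in all tumours and none below, with a median of 1.43. The 3 genes all encode inhibitors of the kinases CDK4 and CDK6 that cyclin D1 activates. Cdkn2c (p18) was at 3.15, 20.4, 14.4 and 9.45 CPM in Regress 1 to 4, against 0.527, 1.05, 1.05 and 2.33 CPM in Normal 1 to 4. Its adjusted p was 0.0510 at a log2 fold change of 3.22 ± 0.53 SE. Cdkn2c averaged 11.8 ± 7.31 CPM in the Regress tumours and 1.24 ± 0.767 CPM in the normal livers (SD, n = 4 each). Cdkn2b (p15) stood at 1.18, 29.9, 23.7 and 37.7 CPM in Regress 1 to 4, against 0.527, 1.05, 0 and 0.727 CPM in Normal 1 to 4. Cdkn2a, which encodes p16 and p19Arf, stood at 1.58, 7.51, 9.79 and 18.6 CPM in Regress 1 to 4, against 1.05, 0.526, 0.448 and 0.873 CPM in Normal 1 to 4. In both, Regress 1 lay just above the normal range and the other 3 tumours well beyond it. Rows were summed per gene, so the value of Cdkn2a does not tell p16 from p19Arf. The inhibitor Cdkn1a (p21), a p53 target, was at 4.93, 39.3, 35.3 and 74.1 CPM in Regress 1 to 4, against 4.21, 8.76, 3.88 and 1.89 CPM in Normal 1 to 4, with Regress 1 inside the normal range (log2 fold change 3.04 ± 0.69 SE, adjusted p = 0.0621). Without Regress 1 all 4 inhibitors were called higher, as was the protease gene Mmp12, and 6 of 15 passed in all. The p53 targets as a list had none of 19 above or below, with a median of 0.45, and 3 were called higher without Regress 1, namely Cdkn1a, Btg2 and the death receptor Tnfrsf10b.

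Genes that restrain or promote cell death were mixed. Of 18 tested members of the BCL2 family, Bcl2 and Bok lay above in all tumours and Bmf below, with a median of 0.54, or 0.30 without Normal 3. Bok, an effector that permeabilises mitochondria, was at 28.4, 74.5, 46.9 and 33.01 CPM in Regress 1 to 4, against 16.3, 12.8, 7.47 and 13.7 CPM in Normal 1 to 4 (log2 fold change 1.86 ± 0.32 SE, adjusted p = 0.0510). Bmf, a BH3-only protein that binds and blocks BCL2 proteins, was at 4.53, 4.15, 2.32 and 4.23 CPM in Regress 1 to 4, against 23.2, 7.88, 23.9 and 23.3 CPM in Normal 1 to 4 (log2 fold change -2.35 ± 0.54 SE, adjusted p = 0.0638). Regress 3 was the lowest tumour for Bmf and Normal 2 the lowest normal liver, and the groups did not overlap. Without Regress 1, 2 members were called higher, Bok and the death inhibitor Bcl2l1, and Bmf lower. Bcl2, which blocks cell death, had at most 8.04 CPM in any tumour.

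Oncofetal and liver tumour markers separated Regress 1 from the rest. Of 18 tested, 4 lay above in all tumours, Spp1, Tff3, Ly6d and Sox9, none lay below, and the median was 2.90. With only the 8 libraries in the filter and the fit it was 2.35, where Akr1c18 and Ly6d were not tested. Afp, the fetal counterpart of albumin, stood at 0.591, 222, 62.8 and 430.4 CPM in Regress 1 to 4, against 1.404, 0.876, 0.299 and 4.51 CPM in Normal 1 to 4. It was far above normal liver in Regress 2, 3 and 4 and inside the normal range in Regress 1 (log2 fold change 6.63 ± 1.42 SE, adjusted p = 0.0569). The mean of Afp, 179 ± 192 CPM in the Regress tumours and 1.77 ± 1.88 CPM in the normal livers (SD, n = 4 each), therefore combined unlike tumours. Gpc3, a proteoglycan of fetal liver and liver cancer, was at 0.197, 48.6, 48.4 and 295 CPM in Regress 1 to 4, against 1.93, 0.876, 1.64 and 1.02 CPM in Normal 1 to 4. Akr1c18, a steroid reductase whose family holds near-identical genes, was at 0, 204, 269 and 212 CPM in Regress 1 to 4, against 1.404, 0, 0.299 and 0.873 CPM in Normal 1 to 4. Regress 1 was the lowest of the 8 libraries for Gpc3, and Akr1c18 had no count in Regress 1 or in Normal 2. Tff3, a trefoil peptide, was at 30.3, 971, 1299 and 77.6 CPM in Regress 1 to 4, against 6.67, 0.350, 1.49 and 11.8 CPM in Normal 1 to 4. Ly6d, a surface protein, was at 1.77, 115, 54.3 and 146 CPM in Regress 1 to 4, against 0.351, 0.876, 0.299 and 0.436 CPM in Normal 1 to 4. Here Regress 1 did lie above the normal livers, at the low end of the tumours (log2 fold change 6.86 ± 1.32 SE, adjusted p = 0.0510 for Tff3, and log2 fold change 7.3 ± 1.37 SE, adjusted p = 0.0510 for Ly6d). The list's median difference was -0.41 in Regress 1, 1.95 in Regress 2, 2.43 in Regress 3 and 3.84 in Regress 4, and 10 members were called higher without Regress 1.

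A pair of serine synthesis enzymes also stood higher in Regress 2, 3 and 4 than in Regress 1. Phgdh, the first enzyme, was at 0.394, 41.5, 26.3 and 42.04 CPM in Regress 1 to 4, against 0.527, 0.175, 0.299 and 0.436 CPM in Normal 1 to 4. Psat1, the next enzyme, was at 1.97, 7.91, 5.67 and 14.95 CPM in Regress 1 to 4, against 0.702, 0.701, 0.299 and 0.436 CPM in Normal 1 to 4. Regress 1 was within the normal range for Phgdh and just above it for Psat1 (log2 fold change 6.19 ± 1.2 SE, adjusted p = 0.0510 for Phgdh, and log2 fold change 3.82 ± 0.77 SE, adjusted p = 0.0510 for Psat1). Both belong to the list of unfolded protein and amino acid stress, of which 3 of 23 lay above, Atf5, Psat1 and Fgf21, and Dnajc3 lay below, with a median of 0.32, and 4 were called higher without Regress 1. Among other genes, the metalloprotease Mep1b stood at 1.38, 13.05, 97.3 and 18.1 CPM in Regress 1 to 4, against 1.05, 0.526, 0.149 and 0.436 CPM in Normal 1 to 4. The IGF binding protein Igfbp1 stood at 44.7, 1034, 169 and 1081 CPM in Regress 1 to 4, against 9.13, 11.4, 4.33 and 30.5 CPM in Normal 1 to 4. Both lay above in all 4 tumours with an adjusted p of 0.0510.

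**Figure D3:**
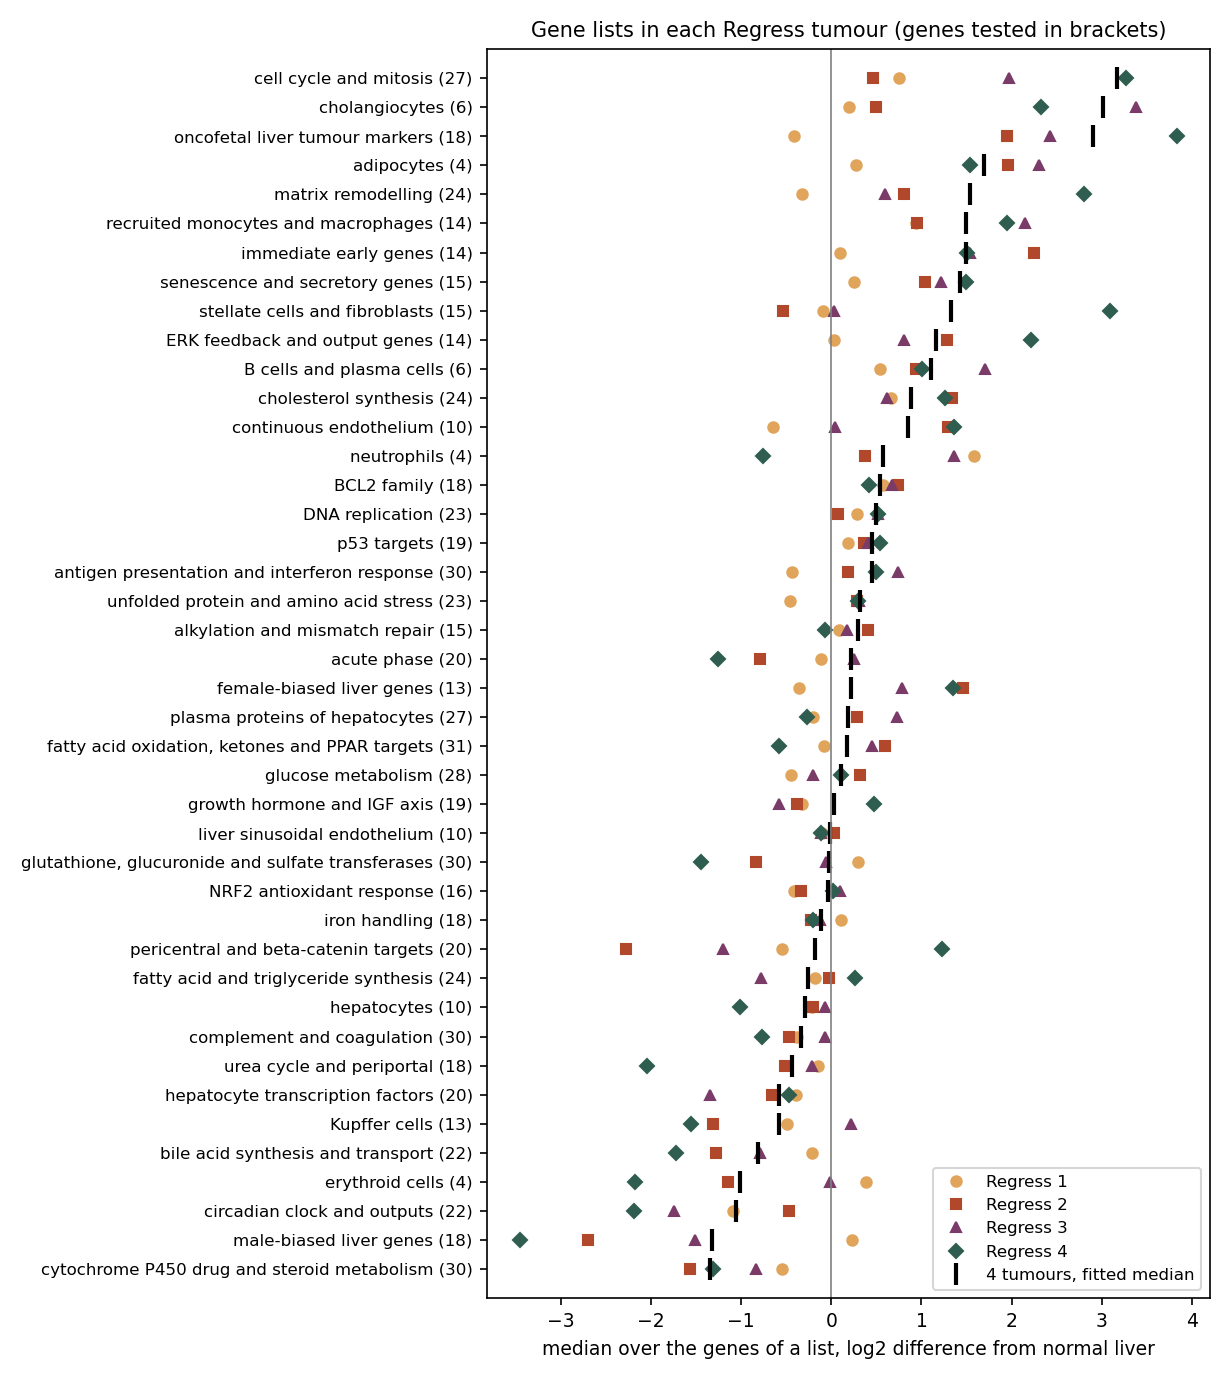
Median log2 difference from normal liver over the tested genes of each list, for each Regress tumour (symbols) and as the fitted median of the 4 (bars), with the number of tested genes in brackets. Regress 1 lies near 0 for oncofetal (-0.41), ERK (0.03) and immediate early genes (0.10) but at -1.09 for circadian genes, and Regress 4 is furthest out for matrix (2.81) and stellate cell genes (3.10).

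Genes of hepatocyte plasma proteins had a median near that of all features, but their summed level was higher in Regress 2, 3 and 4. The sum was 164582, 359964, 345844 and 290352 CPM in Regress 1 to 4, against 160081, 154791, 166131 and 197204 CPM in Normal 1 to 4. It leans on the most abundant genes, such as Alb, and Regress 1 lay inside the normal range. Of 27 plasma protein genes 1 lay above in all tumours, Apoa1, none lay below, and the median was 0.19, and Apoa4 alone was called, higher, without Regress 1. Apoa1, the main protein of high density lipoprotein, was at 10909.6, 41855, 36421 and 15844 CPM in Regress 1 to 4, against 9450.1, 10720.4, 5733 and 9856 CPM in Normal 1 to 4. Apoa4, a related apolipoprotein, stood at 369, 30969, 10258 and 5146 CPM in Regress 1 to 4, against 362, 205, 118 and 612 CPM in Normal 1 to 4, high in Regress 2, 3 and 4 and within the normal range in Regress 1 (log2 fold change 5.17 ± 1.17 SE, adjusted p = 0.0621). Hepatocyte transcription factors had none of 20 above and 2 below, 1 of them the hepatocyte regulator Cebpa, with a median of -0.58, and 1 was called lower without Regress 1. Complement and coagulation genes had none of 30 above or below and a median of -0.34, and the prekallikrein gene Klkb1 (adjusted p = 0.218) and the complement gene C4b (adjusted p = 0.225) had the smallest p of them in edgeR's test.

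Genes of drug metabolism, bile acids and urea included members that lay below normal liver in all tumours. Among cytochrome P450 genes 6 of 30 lay below in all tumours and none above, with a median of -1.34, or -0.72 without Normal 2. Calls went the other way without Regress 1, with 3 called higher and none lower (Cyp2a4, Cyp2b13 and Cyp39a1), and in DESeq2, with 3 higher and 1 lower. At an unadjusted p under 0.05 in edgeR, 4 were higher and 5 lower. Cyp2e1, which oxidises ethanol and is made around the central vein, stood at 1818, 227, 1324 and 1354 CPM in Regress 1 to 4, against 3747, 2857, 5059.5 and 8397 CPM in Normal 1 to 4. Regress 2 was lowest and no tumour reached the lowest normal liver. Cyp2e1 averaged 1181 ± 675 CPM in the Regress tumours and 5015 ± 2429 CPM in the normal livers (SD, n = 4 each). Cyp2c37, an arachidonic acid hydroxylase, was at 243, 5.14, 23.9 and 33.9 CPM in Regress 1 to 4, against 403, 378, 481 and 625 CPM in Normal 1 to 4. Por, the reductase that feeds electrons to these enzymes, was at 66, 97.3, 66.4 and 119 CPM in Regress 1 to 4, against 145, 191, 371 and 400.2 CPM in Normal 1 to 4. Cyp2a4, of a closely related pair with Cyp2a5 and female-biased, stood at 5.91, 6543, 1457 and 1168 CPM in Regress 1 to 4, against 50.03, 87.95, 6.72 and 37.1 CPM in Normal 1 to 4. It was high in all tumours but Regress 1, which had the lowest value of all 8. Of 22 bile acid genes 2 lay below, none above, with a median of -0.82. Slc10a1, the transporter that takes bile acids into hepatocytes, was at 296, 159, 268 and 101 CPM in Regress 1 to 4, against 465, 306, 676 and 969 CPM in Normal 1 to 4 (log2 fold change -1.55 ± 0.48 SE, adjusted p = 0.125). Cyp7a1, the rate-limiting enzyme of bile acid synthesis, was at 120.0, 4.74, 3.86 and 8.61 CPM in Regress 1 to 4, against 91.1, 142, 86.5 and 549 CPM in Normal 1 to 4. Regress 1 lay inside the normal range for Cyp7a1 and the other 3 tumours lay below it.

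Genes of periportal and pericentral hepatocytes differed in level between tumours. Of 18 periportal and urea cycle genes 2 lay below, Cps1 and Asl, and none above, with a median of -0.43, or -0.15 without Regress 4, and 1 was called higher without Regress 1, the cadherin Cdh1. Cps1, which starts the urea cycle, was at 1079.6, 733, 922 and 658 CPM in Regress 1 to 4, against 1864, 1518, 3937 and 2173 CPM in Normal 1 to 4. Ass1, a later enzyme of the cycle, was at 2619, 2607, 2509 and 479 CPM in Regress 1 to 4, against 3533, 2633, 2566 and 3886 CPM in Normal 1 to 4, so that Regress 4 stood far below the other 7 libraries. The amino acid enzyme Tat was at 261, 635, 371 and 153 CPM in Regress 1 to 4, against 1455, 591, 1158 and 1304 CPM in Normal 1 to 4 (log2 fold change -1.67 ± 0.46 SE, adjusted p = 0.0974). Of 20 pericentral and beta-catenin target genes 4 lay below in all tumours, and none above. The tumour medians ran in opposite directions, at -0.54, -2.28, -1.2 and 1.23 in Regress 1 to 4, and the fitted median of -0.18 was -1.2 without Regress 4. The amino acid transporter Slc1a4 was the 1 member called without Regress 1, higher. Glul, glutamine synthetase and a beta-catenin target, stood at 238, 22.7, 147 and 1519 CPM in Regress 1 to 4, against 292, 225, 375 and 583 CPM in Normal 1 to 4. Axin2, the feedback gene of the same pathway, stood at 2.96, 0.593, 0.773 and 26.1 CPM in Regress 1 to 4, against 5.27, 1.402, 4.93 and 4.66 CPM in Normal 1 to 4. Regress 4 was the highest and Regress 2 the lowest of the 8 libraries for Glul, and Regress 4 the highest for Axin2, and the fold change of both turned negative without Regress 4 (-1.44 for Glul and -1.46 for Axin2).

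The median of cholesterol synthesis genes lay above normal liver in each of the 4 tumours. Of 24 tested genes 4 lay above, Hmgcs1, Mvd, Lss and Sc5d, and none below, with a median of 0.89 and tumour medians of 0.67, 1.34, 0.62 and 1.26 in Regress 1 to 4. Hmgcs1, which makes the precursor of mevalonate, was at 171, 166, 159 and 466 CPM in Regress 1 to 4, against 33.9, 24, 50.2 and 128 CPM in Normal 1 to 4. Mvd, which makes the first isoprenoid of the pathway, was at 34.7, 38.7, 29.1 and 52.2 CPM in Regress 1 to 4, against 6.14, 12.4, 10.8 and 21.5 CPM in Normal 1 to 4 (log2 fold change 1.6 ± 0.38 SE, adjusted p = 0.0686). Cyp51, lanosterol demethylase, was at 158, 343, 225 and 306 CPM in Regress 1 to 4, against 46.5, 45.4, 84.9 and 162 CPM in Normal 1 to 4. Regress 1 lay above every normal liver for Hmgcs1 and Mvd but just below Normal 4 for Cyp51, and Normal 4 was the highest normal liver for all 3 genes. Mvd averaged 38.7 ± 9.84 CPM in the Regress tumours and 12.7 ± 6.45 CPM in the normal livers (SD, n = 4 each). Unadjusted p was under 0.05 for 13 of the 24, all higher, and 5 were called without Regress 1.

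Fatty acid genes were mixed. Of 24 genes of fatty acid and triglyceride synthesis, 2 lay above (the fatty acid elongases Elovl5 and Elovl7) and 2 below (Srebf1 and the triglyceride enzyme Dgat2), with a median of -0.26, and without Regress 1 2 were called higher and 1 lower. Srebf1, the transcription factor that drives this synthesis, was at 119, 175, 118 and 157 CPM in Regress 1 to 4, against 495, 426, 723 and 192 CPM in Normal 1 to 4 (log2 fold change -1.69 ± 0.46 SE, adjusted p = 0.0974). The lipid acyltransferase Gpat4 was at 111, 56.3, 60.3 and 63.5 CPM in Regress 1 to 4, against 236, 161, 193 and 211 CPM in Normal 1 to 4. Of 31 genes of fatty acid oxidation, ketones and PPAR targets, 5 lay above and 1 below, with a median of 0.17, and 6 were called higher and none lower without Regress 1. The 5 above were Pdk4, which holds back glucose oxidation, the hormone Fgf21, the lipid droplet protein Plin2, the fatty acid carrier Fabp4 and the fatty acid transporter Cd36, and the 1 below was Cpt2, which readies fatty acids for oxidation inside mitochondria. Cd36 stood at 45.3, 97.1, 139 and 77.2 CPM in Regress 1 to 4, against 13.9, 30.1, 7.47 and 17.3 CPM in Normal 1 to 4 (log2 fold change 2.38 ± 0.44 SE, adjusted p = 0.0510). Plin2 stood at 228, 717, 637 and 559 CPM in Regress 1 to 4, against 120.2, 93.4, 152 and 206 CPM in Normal 1 to 4. All 4 tumours lay above normal liver for both, Regress 1 lowest. Cd36 averaged 89.5 ± 39.02 CPM in the Regress tumours and 17.2 ± 9.54 CPM in the normal livers (SD, n = 4 each). Among 28 glucose genes none lay above or below, the median was 0.11, and 3 were called higher without Regress 1, namely Pfkp, Aldoa and Pkm.

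The growth hormone axis and sex-biased genes were read beside the spread of the normal livers. Of 19 growth hormone and IGF genes 1 lay above, Igfbp1, and 2 below, 10 had a positive log2 fold change, and the median was 0.03, with 0.47 in Regress 4. Without Regress 1, 1 was called higher (Igfbp1) and 2 lower (Igfals and the receptor Ghr). Igf1, the liver hormone that growth hormone induces, was at 487, 215, 285 and 62.5 CPM in Regress 1 to 4, against 559, 785, 672 and 564 CPM in Normal 1 to 4. Its carrier Igfals was at 61.9, 11.5, 23.9 and 6.77 CPM in Regress 1 to 4, against 136, 154, 155 and 134 CPM in Normal 1 to 4. Both lay below in all tumours, least so in Regress 1 (log2 fold change -1.3 ± 0.49 SE, adjusted p = 0.209 for Igf1, and log2 fold change -2.48 ± 0.73 SE, adjusted p = 0.112 for Igfals). Of 18 male-biased genes none lay above or below and the median of -1.33 became -3.50 without Regress 1, whose own median was 0.23, and 1 was then called lower, Serpina4-ps1. Hsd3b5, a male-biased steroid enzyme, was at 102, 2.57, 11.8 and 9.88 CPM in Regress 1 to 4, against 233, 5.43, 92.2 and 337 CPM in Normal 1 to 4, so Normal 2 lay with the low tumours. Of 13 female-biased genes none lay above or below, with a median of 0.22, which became 2.90 without Normal 2, and 3 were called higher without Regress 1. Cyp2b13, of the closely related Cyp2b family, was at 0, 23.1, 3.61 and 18.1 CPM in Regress 1 to 4, against 0, 0.350, 0 and 0.291 CPM in Normal 1 to 4.

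Among the 31 gene programmes, Regress 1 had its largest median difference from normal liver in the circadian clock, at -1.09. The clock runs on the activators ARNTL, CLOCK and NPAS2, which bind the E-box and switch on Per, Cry and output genes such as Dbp, while DBP, TEF and HLF bind the D-box. To show where such letters lie, RefSeq promoters (the 250 bases before the start, GRCm38.p6) were searched on both strands. The motifs were the E-box CACGTG and the D-box TTATGNAA, chosen after the values were seen. Of 20 clock list genes with a promoter, 6 hold the E-box in any of their promoters (Bhlhe41, Ciart, Cry1, Per1, Tef and Tspan4). The D-box is held by 3 (Noct, Per1 and Per3). Of all 32851 promoters, 6.02% hold the E-box and 3.07% the D-box. These percentages count promoters and not genes, and a gene with several promoters has more chances, so the shares cannot be compared. A match describes the letters and is not a bound site. Each window below gives the motif in capitals with up to 30 bases on each side, 5′ to 3′ on the gene's strand, and no motif overlaps another in it.
Ciart E-box, chr3:95882309-95882374, minus strand: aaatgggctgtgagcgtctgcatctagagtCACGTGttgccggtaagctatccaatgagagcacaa
Cry1 E-box, chr10:85185079-85185144, minus strand: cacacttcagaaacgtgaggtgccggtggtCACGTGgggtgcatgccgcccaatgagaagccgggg
Per1 E-box, chr11:69098753-69098818, plus strand: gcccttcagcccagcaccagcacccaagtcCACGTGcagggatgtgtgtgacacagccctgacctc
Tef E-box, chr15:81802516-81802581, plus strand: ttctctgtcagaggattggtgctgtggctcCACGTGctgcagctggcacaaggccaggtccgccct
Noct D-box, chr3:51224323-51224390, plus strand: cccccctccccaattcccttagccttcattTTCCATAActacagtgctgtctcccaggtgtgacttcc
Per3 D-box, chr4:151044833-151044900, minus strand: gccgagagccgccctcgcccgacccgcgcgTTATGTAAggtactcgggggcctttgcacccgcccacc

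Of 22 tested clock genes 1 lay above in all tumours, Npas2, and 6 below, namely Per2, Cry2, Hlf, Usp2, Noct and Upp2, with a median of -1.06. The activator Arntl was at 14.97, 0.395, 6.44 and 27.8 CPM in Regress 1 to 4, against 1.23, 0.526, 2.39 and 0.436 CPM in Normal 1 to 4. Regress 1, 3 and 4 lay above every normal liver and Regress 2 just below all of them. The mean of Arntl was 12.4 ± 11.9 CPM in the Regress tumours and 1.15 ± 0.903 CPM in the normal livers (SD, n = 4 each). The E-box target Dbp was at 2.96, 166, 15.5 and 1.98 CPM in Regress 1 to 4, against 65.3, 59.6, 108 and 132 CPM in Normal 1 to 4, so Regress 2 was the highest library and Regress 1 and 4 the lowest. Per3, a clock repressor whose promoter holds the D-box, was at 0.591, 16.01, 3.09 and 0.564 CPM in Regress 1 to 4, against 12.3, 28.03, 32.7 and 25.5 CPM in Normal 1 to 4, with the tumours in the same order. Ciart, another repressor with an E-box, was at 0, 12.7, 0.258 and 0.282 CPM in Regress 1 to 4, against 11.1, 1.93, 7.17 and 11.8 CPM in Normal 1 to 4. Usp2, a deubiquitinase, was at 0.197, 6.92, 0.258 and 1.55 CPM in Regress 1 to 4, against 18.4, 10.5, 43.6 and 49.5 CPM in Normal 1 to 4. Noct (nocturnin), whose promoter holds the D-box, was at 0.197, 4.94, 0.773 and 1.98 CPM in Regress 1 to 4, against 21.8, 7.36, 22.4 and 32 CPM in Normal 1 to 4. For both, Regress 2 also lay below normal liver, though closest to it. Hlf stood at 19.9, 21.7, 14.4 and 12.98 CPM in Regress 1 to 4, against 35.99, 32.6, 77.4 and 77.4 CPM in Normal 1 to 4, below every normal liver in all 4 tumours (log2 fold change -1.69 ± 0.31 SE, adjusted p = 0.0510). It was the 1 clock gene called lower without Regress 1. Cry2, a repressor, was at 11.2, 16.6, 5.67 and 12.98 CPM in Regress 1 to 4, against 23.3, 20.7, 48.4 and 36.4 CPM in Normal 1 to 4 (log2 fold change -1.46 ± 0.35 SE, adjusted p = 0.0716). The time of day at which tissue was taken is not given in the sources used here, so its part in the clock genes cannot be told apart from that of the tumours.

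Markers of other cell types were compared by their summed CPM. Recruited monocyte and macrophage markers summed to 517, 431, 1038 and 793 CPM in Regress 1 to 4, against 489, 372, 103 and 169 CPM in Normal 1 to 4. The groups overlapped, all 14 tested genes had a positive log2 fold change, the median was 1.5, and 2 lay above in all tumours. Of these genes, Spp1 (1 of the 2 above) and Lgals3 are also in the oncofetal list. Without Regress 1, 3 were called higher, Trem2, Gpnmb and Cd14. Gpnmb, a marker of lipid-laden and scar macrophages, was at 0.394, 4.55, 16.2 and 217 CPM in Regress 1 to 4, against 0.351, 0.526, 0.149 and 0.291 CPM in Normal 1 to 4, which set Regress 4 apart. Cd14 was at 3.94, 56.3, 30.9 and 69.6 CPM in Regress 1 to 4, against 7.899, 2.98, 3.138 and 2.91 CPM in Normal 1 to 4. Kupffer cell markers summed to 649, 428, 1181 and 528 CPM in Regress 1 to 4, against 1496, 879.5, 639.5 and 635 CPM in Normal 1 to 4. They had 1 of 13 below in all tumours, the haemoglobin scavenger receptor Cd163, and a median of -0.59, or -0.17 without Normal 1 and -0.33 without Regress 2. Marco, a scavenger receptor of Kupffer cells, was at 1.18, 1.98, 4.64 and 1.98 CPM in Regress 1 to 4, against 65.3, 2.63, 12.7 and 3.2 CPM in Normal 1 to 4, highest in Normal 1. The markers of sinusoidal endothelium summed to 255, 270.3, 259 and 241 CPM in Regress 1 to 4, against 243, 221, 269 and 294 CPM in Normal 1 to 4. The sums lay within the normal range in all 4 tumours, the median log2 fold change was -0.02, and Lyve1 alone was called, higher, without Regress 1. Markers of T cells, NK cells and dendritic cells summed to no more than 22.7 CPM in any library, too low to compare.

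Stellate cell and matrix genes were high in Regress 4. Stellate cell and fibroblast markers summed to 429, 185, 388 and 1372 CPM in Regress 1 to 4, against 445, 355, 258 and 347 CPM in Normal 1 to 4. Of 15 tested 1 lay above in all tumours, Tagln, and the tumour medians were -0.09, -0.54, 0.03 and 3.10 in Regress 1 to 4. The fitted median of 1.33 was 0.12 without Regress 4, and 5 were called higher without Regress 1. Col1a1, the main scar collagen, was at 0.985, 2.77, 5.15 and 186 CPM in Regress 1 to 4, against 0.351, 0.526, 1.64 and 0.727 CPM in Normal 1 to 4. Col3a1 was at 11.8, 30.05, 58.97 and 266 CPM in Regress 1 to 4, against 12.5, 8.76, 12.3 and 5.09 CPM in Normal 1 to 4. Matrix genes had none of 24 above or below, with a median of 1.54 that was 0.23 without Regress 4, and 13 had an unadjusted p under 0.05, all higher, while 8 were called higher without Regress 1. Long transcripts also stood high in Regress 4, and with the length trend removed the medians were 1.54 for matrix genes and 1.24 for stellate cell genes. Cholangiocyte markers summed to 36.8, 262, 354 and 530.0 CPM in Regress 1 to 4, against 35.5, 28.03, 40.3 and 24.7 CPM in Normal 1 to 4. In Regress 2, 3 and 4 a large part of this sum was 1 gene, Tspan8. Of the 6 tested, Sox9 and Spp1, which the oncofetal list also holds, lay above in all tumours, and the median was 3.01, or 1.30 without Regress 3, and 1 was called higher without Regress 1, Tspan8. Epcam stood at 0.985, 0.198, 56.4 and 4.37 CPM in Regress 1 to 4, against 1.23, 1.23, 0.897 and 0 CPM in Normal 1 to 4, so that Regress 3 alone was high. Endothelial Cd34 was at 0.197, 16.01, 10.04 and 13.3 CPM in Regress 1 to 4, against 0.702, 1.05, 0 and 1.02 CPM in Normal 1 to 4, low in Regress 1 only among the tumours. It was 1 of 3 of the 10 continuous endothelium genes called higher without Regress 1. Erythroid markers summed to 996, 409.6, 729.5 and 189.8 CPM in Regress 1 to 4, against 2299.6, 1995, 443 and 445 CPM in Normal 1 to 4, and of 4 tested Alas2 was called lower without Regress 1. Pancreatic acinar markers had 1 tested gene, Cela1, at 61.7, 265, 329 and 67.01 CPM in Regress 1 to 4, against 20.9, 12.4, 7.17 and 43.2 CPM in Normal 1 to 4, and 6 of the list's 10 were at 0 in all 8 libraries. Cela1 was called higher without Regress 1.

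**Figure D4:**
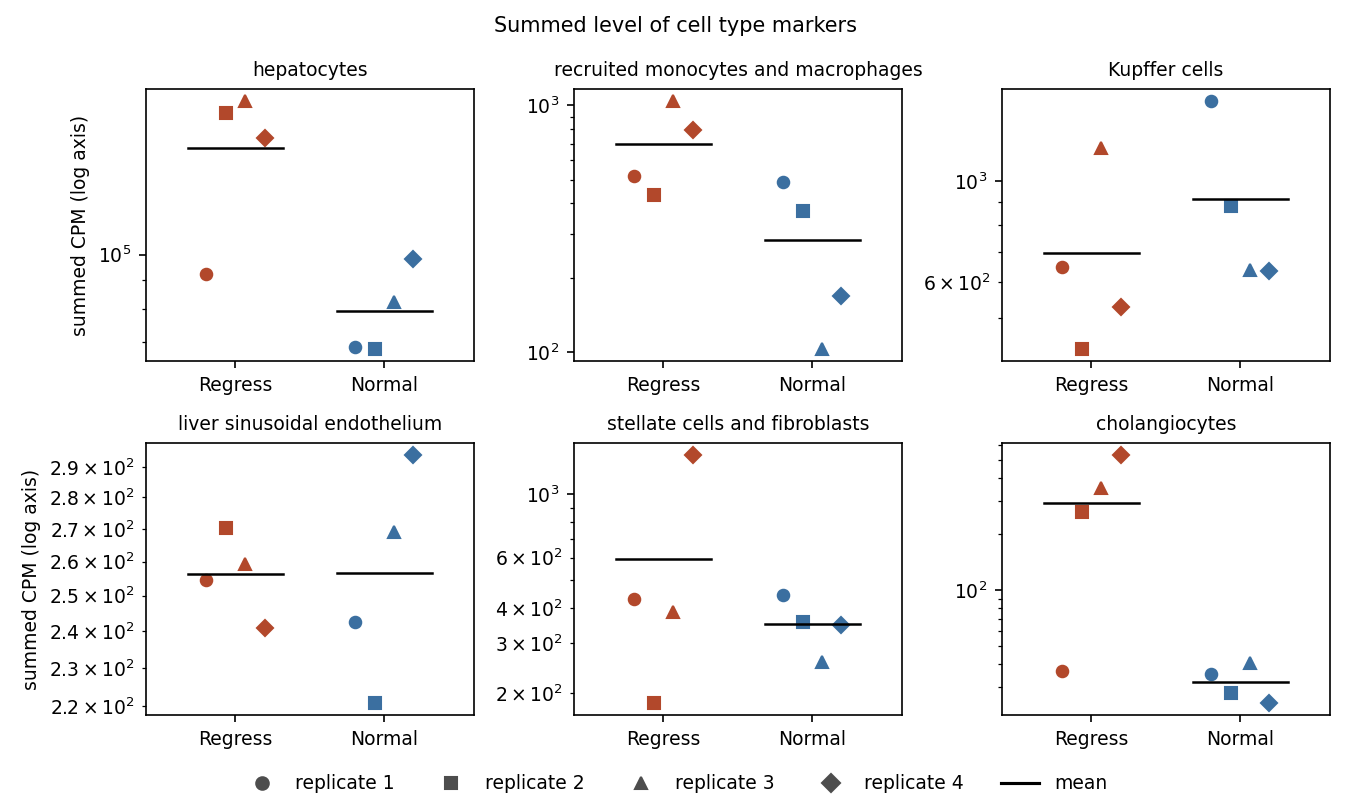
Summed CPM, on a log axis, of the markers of 6 cell types in each Regress tumour (left of each panel) and each normal liver (right), with lines for the means. Stellate cell markers are highest in Regress 4 (1372). Cholangiocyte markers are highest in Regress 2, 3 and 4, where the gene Tspan8 makes up a large part of the sum. Sinusoidal endothelial markers lie between 221 and 294 in all 8 libraries.

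Each of the other groups had at most 3 members that lay above or below normal liver in all tumours. Acute phase genes had 1 of 20 below, Orm3, and a median of 0.22 that was -0.48 without Regress 1, when 2 were called higher (Lcn2 and Il1rn) and 2 lower (Saa1 and Saa2). Lcn2, an iron-binding acute phase protein, stood at 22.5, 272, 287 and 406 CPM in Regress 1 to 4, against 47.4, 21.7, 23.6 and 22.7 CPM in Normal 1 to 4, with Regress 1 inside the normal range. Antigen presentation and interferon genes had none of 30 above or below and a median of 0.45, with Ifit2 at 4.73, 8.896, 17.8 and 11.6 CPM in Regress 1 to 4, against 9.48, 4.56, 2.39 and 3.64 CPM in Normal 1 to 4. Genes of alkylation and mismatch repair had none of 15 above or below and a median of 0.30, and Mlh3 was called lower without Regress 1. Mgmt, which removes the methyl group that TMZ adds to guanine, was at 29.9, 22.9, 27.6 and 9.31 CPM in Regress 1 to 4, against 18.1, 31.01, 6.57 and 13.7 CPM in Normal 1 to 4. The TMZ-treated Regress 1 and 3 lay within the range of the normal livers. Genes of the NRF2 response had none of 16 above and 1 below, Gsr, with a median of -0.03, and Srxn1 was called higher without Regress 1. At an unadjusted p under 0.05 in edgeR, 2 of the 16 were higher and 5 lower. Iron genes had Id1 above and the iron sensor Tfr2 below of 18, with a median of -0.11. Tfr2 was at 172, 128, 114 and 158 CPM in Regress 1 to 4, against 295, 195, 461 and 345 CPM in Normal 1 to 4. Transferases of glutathione, glucuronide and sulfate had 3 of 30 below, Gsta2, Ugt1a1 and Ugt2b34, and a median of -0.03. B cell and plasma cell markers had Cd79b above of 6, with the plasma cell gene Jchain at 16.7, 51.2, 32.96 and 42.7 CPM in Regress 1 to 4, against 18.96, 20.1, 4.33 and 10.04 CPM in Normal 1 to 4.

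The genes furthest outside the range of the normal livers were in part shared by Regress 2, 3 and 4, with Akr1c18 above and Lrtm1 below in each, and none of the 6 in Regress 1 was among those of another tumour. In Regress 1 these were Arntl, Egr1 and Chka above and Tlk2, Usp2 and Dbp below. Only 3 genes per side were taken for each tumour. Regress 4 stood higher than Regress 1 for Arntl, Egr1 and Chka and lower for Dbp, so these genes were not particular to Regress 1. Chka, choline kinase, was at 71.3, 27.3, 79.6 and 224 CPM in Regress 1 to 4, against 15.8, 16.8, 15.8 and 7.13 CPM in Normal 1 to 4, so all tumours lay above. The kinase Tlk2 was listed at 0 in Regress 1 only. In Regress 2 they were Akr1c18, Ly6d and Slpi above and Cyp2c37, Etnppl and Lrtm1 below. The protease inhibitor Slpi was at 3.55, 573, 235 and 147 CPM in Regress 1 to 4, against 5.79, 4.73, 1.05 and 3.49 CPM in Normal 1 to 4. Etnppl, a phospholyase, was at 89.2, 1.38, 3.09 and 2.26 CPM in Regress 1 to 4, against 268, 111, 154 and 116 CPM in Normal 1 to 4. In Regress 3 they were Akr1c18, Lgals4 and Tff3 above and Brd2, Lrtm1 and Wac below. The galectin Lgals4 was at 1.77, 1.78, 201 and 0.846 CPM in Regress 1 to 4, against 1.23, 0.350, 0.897 and 1.02 CPM in Normal 1 to 4, high in that tumour alone. Brd2 and Wac were listed at 0 there and nowhere else. An estimated count of 0 for a gene used by all cells can be a failed estimate. In Regress 4 they were Gpnmb, Gpc3 and Akr1c18 above and Upp2, Serpina4-ps1 and Lrtm1 below. The uridine phosphorylase Upp2 was at 299, 154, 61.3 and 0.846 CPM in Regress 1 to 4, against 534, 533, 326 and 845 CPM in Normal 1 to 4. Lrtm1 was at 23.4, 0.198, 0 and 0.141 CPM in Regress 1 to 4, against 30.4, 45.7, 35.9 and 43.5 CPM in Normal 1 to 4, near normal in Regress 1 and at or near 0 in the other 3.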

How the data were processed

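RNA from snap-frozen liver or tumour tissue was made into TruSeq RNA v2 libraries, per the labels' protocols, a kit that does not mark strand, so overlapping and antisense genes cannot be told apart. The deposited values are estimated counts per transcript row, not normalized, in 1 column per sample. Salmon 0.3.1, edgeR 3.14.0 and the mouse build mm9 are listed, per the submitters' processing notes, without saying what each was used for. Annotation, read length and trimming were not given in the sources used here. 1 further column held no values.

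Of 35230 rows, 26081 were matched to gene symbols through RefSeq (GRCm38.p6), 144 through GENCODE, and 9005 were kept under their own identifiers (3.52% to 12.1% of a library). That assembly is not the submitters' build, and it was used for names, transcript lengths and promoter sequences only. Summing the rows of each gene and rounding gave 30436 features. Copies of near-identical genes (Mup, Akr1c, Cyp2a, Cyp2b, Serpina1, Serpina4-ps1, Saa, globins) have uncertain values, because the counting may divide reads among them. Groups came from the sample titles.

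The test was edgeR 4.0.16 (quasi-likelihood, robust, TMM, filterByExpr, R 4.3.3, limma 3.58.1) on all 14 libraries, contrasting Regress with Normal over 12300 features. CPM and log2 values (prior count 2) used TMM library sizes, and the SE is that of the log2 fold change. The biological coefficient of variation was 0.484. The script was tested on simulated data of 12156 genes. Alternatives were other scaling, filters and sample sets, DESeq2 1.42.0, limma-voom, a replicate block, removal of the length trend, and leaving out each library. Members of the comparison and gene lists were chosen with earlier results of these data known. Genes named were, by rule, called genes, up to 4 called members per list or else its 2 of smallest p, 10 set genes, the 3 genes furthest above and below the normal range in each tumour, and the 2 widest-spread markers per cell type. Other genes named with values, such as Tff3, Egr1, Cyp2e1, Hmgcs1, Igf1 and the clock genes, were chosen after their values were seen. Results for some genes are not reported here.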

Additional observations from a re-analysis of the deposited data

Results flagged for a closer look

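In each group of 4 libraries the gap between the most extreme library and its neighbour was divided by the group's range, and a ratio above Dixon's critical value for 4 libraries was marked. Of 281 groups tested 26 were marked. Chance alone marks about 1 in 20 groups of a set chosen without regard to its values, which is no reference here, because the set includes genes named for their extreme or widely spread values in single tumours. No explanation was tested.

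Regress 1 was the lowest tumour for Akr1c18 (ratio 0.959), Phgdh (0.887), Cd34 (0.870), Lcn2 (0.861), Tspan8 (0.861), Cdkn2b (0.859) and Alb (0.8291), and the highest for Lrtm1 (0.882). The tetraspanin Tspan8, a cholangiocyte marker here, was at 2.36 CPM in Regress 1, against 0.897 to 5.24 CPM in Normal 1 to 4, and at 195 to 392 CPM in Regress 2 to 4.

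Regress 2 was the lowest tumour for Cyp2e1 (0.848). Regress 3 was the lowest for Nr5a2 (0.885), Bmf (0.867) and Brd2 (0.850) and the highest for Lgals4 (0.884). Regress 4 was the lowest for Ass1 (0.975), the endothelial lectin Clec4g (0.900) and the drug-metabolising Cyp3a11 (0.834), and the highest for Hmgcs1 (0.933). Cyp3a11 stood at 404 CPM in Regress 4, against 4103 to 5502 CPM in Normal 1 to 4.

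Among normal livers, Normal 1 was the highest for Cd14 (0.927) and Lcn2 (0.894). Normal 2 was the lowest for Bmf (0.972), Junb (0.947), Car3 (0.922), Axin2 (0.902) and the male-biased Cyp2d9 (0.882). Cyp2d9 was at 105 CPM in Normal 2. Normal 4 was the highest for Cidec (1), which had no count in the other 3, and the lowest for Chka (0.926).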

How the results depend on the processing

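The count of 3 called genes moved to 35 with DESeq2's size factors in edgeR, 712 with DESeq2, 151 with the length trend removed, 70 with named genes only and 512 without the TMZ-treated Regress 1 and 3. It was 0 with limma-voom, with only the Regress and Normal libraries (1248 genes at an unadjusted p under 0.05), with Grow 3 and Grow 4 summed (1927), without Normal 4 and Regress 2 (1175) and without Regress 4 and Normal 3 (2089, chosen after seeing the data). It was 2 with no filter and 3 with a mean CPM of at least 1. Leaving out 1 library gave 0 to 667 calls, the highest without Regress 1, and 13 without Regress 4. With the replicate number as a block it was 0, with 795 at an unadjusted p under 0.05. Same-numbered libraries correlated at 0.0104, 0.156, -0.386 and -0.118 in their deviations from the group means. Regress 2 and Normal 4, which share a code, correlated at 0.107. Such values cannot decide whether equal numbers share an animal, and the labels do not say. The causes were not tested. Over the 21 alternatives the log2 fold change ranged from 2.55 to 3.41 for Ccnd1 (called in 9), 1.88 to 2.57 for Dusp6 (called in 8) and 2.60 to 3.37 for Mpzl1 (called in 9), with adjusted p up to 0.263, 0.296 and 0.270.

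Of the fold changes of named genes over all alternatives, 2806 kept their direction and side of the threshold, 298 came to pass it, 37 no longer passed and 42 changed sign, all of genes that were not called with all libraries. Without the TMZ-treated Regress 1 and 3 the log2 fold change was -0.54 for S100a8, -1.09 for Gzma, -0.29 for Zbtb46, -0.11 for Mgmt, 0.21 for Tlk2, 0.065 for Wac, -0.30 for Clec4g and -0.85 for Cyp3a11. With limma-voom it was 0.071 for Cd4, -0.95 for Glul, -0.12 for Cd22, -0.44 for Cyp3a11 and -0.13 for Axin2. With the block it was -0.78 for Glul, -0.17 for Cyp3a11 and -0.35 for Axin2. Without Regress 4 and Normal 3 it was -1.43 for Glul, 0.061 for Clec4f, -0.96 for Cd22 and -1.36 for Axin2. Without Normal 4 and Regress 2 it was 0.50 for Cd4 and 1.63 for Mup1, and with the length trend removed -0.19 for Clec4g. Leaving out 1 library gave -0.72 to 0.25 for Cd4, -0.17 to 1.82 for Ccl5, -0.085 to 0.22 for Zbtb46, -1.44 to 0.78 for Glul, -0.74 to 0.24 for Clec4f, -0.83 to 0.83 for Cd22, -0.11 to 0.54 for Cyp3a11, -1.46 to 1.31 for Axin2, -6.40 to 0.19 for Cyp2c40 and -5.58 to 1.22 for Mup1. Of the list medians, 36 moved by more than the spread between tumours and 867 did not. At 4.71 to 7.47 M estimated counts per library, genes of a few CPM rest on few counts.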
